A study of Canis lupus familiaris with 28 samples.

Results

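SQLE and ACAT2 are 2 of the 32704 genes counted in a study of canine histiocytic sarcoma (HS), and they were chosen by symbol as enzymes of sterol synthesis. Their Ensembl identifiers, ENSCAFG00000001056 for SQLE and ENSCAFG00000000720 for ACAT2, were paired with the symbols through the study's supplementary tables. HS is a cancer of dendritic cells and macrophages that is frequent in the Bernese Mountain Dog (BMD). RNA was sequenced from 18 frozen tumors of BMDs, of which 15 were labelled HS and 3 were labelled hemophagocytic histiocytic sarcoma (HHS), a subtype of macrophage character. The 15 HS tumors came from the lung (5), liver (3), thorax (3), spleen (2) and limb (a leg mass and a shoulder mass, grouped here as 2 limb tumors), and the 3 HHS tumors came from the lung, the liver and a lymph node. The unaffected controls were blood of 3 BMDs and 1 liver, 1 lung and 1 spleen of German Shepherd Dogs (GSDs), so that breed and tissue cannot be told apart among the controls. The cultured samples were the HS cell lines BD and OD, each derived from 1 BMD, the HS cell line PJ, derived from a Rottweiler, and DC3F9, normal dendritic cells that were differentiated from a mongrel's monocytes with GM-CSF and IL-4. No labelled sample carried an engineered allele or a drug treatment.

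Cells make cholesterol from acetyl-CoA. ACAT2 is the cytosolic thiolase that joins acetyl-CoA units to acetoacetyl-CoA at the entrance of the mevalonate pathway, and SQLE, squalene epoxidase, is an oxygen-dependent and rate-limiting enzyme of the later sterol branch. SREBF2 encodes the transcription factor that switches on the genes of this pathway when sterols are scarce, and the liver is a main organ of cholesterol synthesis. The symbol ACAT2 has also been used for SOAT2, an enzyme that esterifies cholesterol, which is a different gene. In the RefSeq annotation of another dog assembly (UU_Cfam_GSD_1.0), SQLE lay on chromosome 13 and overlapped none of its neighbours, whereas ACAT2, on chromosome 1, overlapped TCP1, a subunit of the cytosolic chaperonin.

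The libraries held 82007857 to 180801439 counts, so that 3 counts corresponded to at most 0.0366 CPM (counts scaled to a library total of 1000000), and both genes were far above this level in every library. The hepatocyte marker list (9 genes) reached 7478 CPM in the liver control and 4.69 to 125 CPM in the tumors. Of the defining markers, PLG, which encodes plasminogen, was at 4615 CPM in the liver control, at 78.2 CPM in the tumor HS33 of the liver and at or below 0.738 CPM in the other tumors. AGER, a marker of alveolar epithelium, was at 1982 CPM in the lung control and at 1.27 to 57.4 CPM in the tumors, and the phagocyte marker LYZ was at 286 to 7222 CPM in the tumors. The T and NK cell markers, 7 genes, summed to 35.5 to 1097 CPM in the controls without the liver and to 14.7 to 243 CPM in the tumors. The part of such cells in the results below was not tested, and in bulk tissue fewer cells of a type and less RNA per cell cannot be told apart.

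SQLE differed widely from tumor to tumor, and ACAT2 did not. In the 18 tumors SQLE ranged from 3.63 CPM, in the HHS tumor of the liver (HS46), to 89.7 CPM, in the HS tumor HS35 of the lung, with a median of 16.0 CPM, a 24.7-fold range. ACAT2 ranged from 27.7 CPM in HS14 of the thorax to 72.4 CPM in HS29 of the spleen, with a median of 50.4 CPM, a 2.61-fold range. The SD of log2 CPM over the 18 tumors was 1.26 for SQLE and 0.46 for ACAT2, against a median of 0.70 over the 9100 genes with a mean of at least 10 CPM. The spread of SQLE was above that of 86.3% of these genes, and the spread of ACAT2 was above that of 14.1%. SREBF2 lay between them, with an SD of 0.86.

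**Figure D1:**
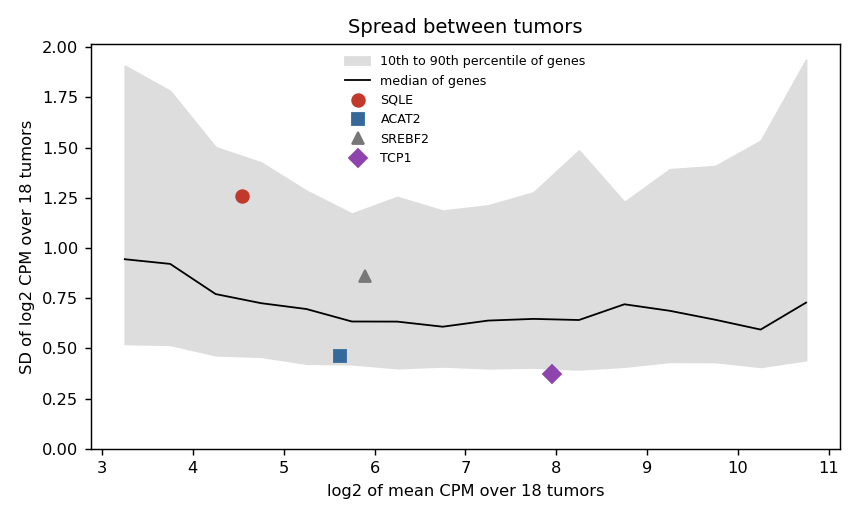
Spread between tumors against level. The x axis is the log2 of the mean CPM over 18 tumors and the y axis the SD of log2 CPM; the grey band runs from the 10th to the 90th percentile of genes of like level and the line is their median. SQLE, at 1.26, sits in the upper part of the band, and ACAT2, at 0.46, near its lower edge.

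By site, SQLE in the 5 HS tumors of the lung was at 5.21 CPM (HS48), 10.5 CPM (HS27), 17.5 CPM (HS47), 39.1 CPM (HS52) and 89.7 CPM (HS35). In the liver it was at 14.5 CPM (HS36), 32.2 CPM (HS50) and 41.2 CPM (HS33), and in the thorax at 3.81 CPM (HS37), 13.7 CPM (HS4) and 26 CPM (HS14). The lung tumors thus spanned nearly the whole range of the disease. The remaining HS tumors were at 23.9 CPM (HS51) and 48.2 CPM (HS29) in the spleen and at 10.5 CPM (HS34) and 11.4 CPM (HS39) in the limb. The spleen tumors and the liver tumors were above both limb tumors, and all other pairs of sites overlapped.

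ACAT2 in the HS tumors of the lung was at 30.4 CPM in HS48 and at 57.4 CPM (HS35), 59.7 CPM (HS52), 65.5 CPM (HS47) and 69.4 CPM (HS27) in the others. It was at 46.3, 54.7 and 69.3 CPM in the liver (HS50, HS36 and HS33) and at 27.7, 44.1 and 54.6 CPM in the thorax (HS14, HS4 and HS37). In the spleen the values were 36.4 CPM (HS51) and 72.4 CPM (HS29), and in the limb 34.1 CPM (HS39) and 57.9 CPM (HS34). Every pair of sites overlapped. The tumor with the second-lowest SQLE of all, HS37, had an ACAT2 level near the middle of the tumors.

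Neither gene differed between sites beyond the spread within them. The F test over the 5 sites gave adjusted p = 0.824 for SQLE and 0.943 for ACAT2 (edgeR quasi-likelihood test, Benjamini-Hochberg), with 0.147% of the 20428 genes tested called at an adjusted p under 0.05 (612 genes by DESeq2, neither enzyme among them). Between lung and liver HS tumors the log2FC was 0.11 (SE 0.75, 95% interval -1.56 to 1.77) for SQLE and 0.02 (SE 0.38, 95% interval -0.82 to 0.86) for ACAT2, both with adjusted p = 1.00 in edgeR. In this contrast 0 of 17889 genes were called by edgeR and 784 (4.38%) had an unadjusted p under 0.05, while DESeq2 called 102 genes and gave adjusted p = 1.00 for both enzymes. The mean log2 CPM went the other way from the fitted values. It was 4.34 in lung and 4.74 in liver tumors for SQLE, and 5.76 and 5.81 for ACAT2. HS33, the tumor with PLG at 1.70% of its level in the liver control, had the highest SQLE of the liver tumors, and the part of liver tissue in it was not tested.

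**Figure D2:**
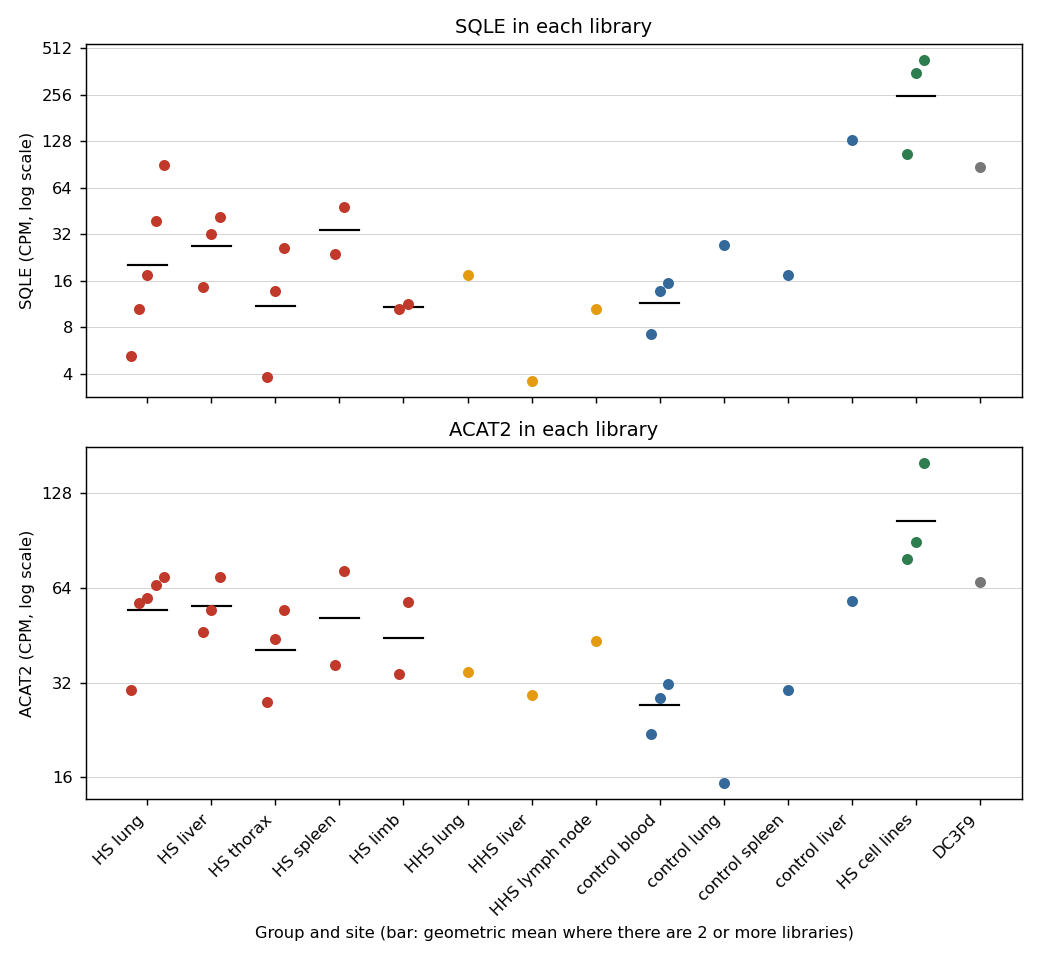
SQLE (upper panel) and ACAT2 (lower panel) in each of the 28 libraries, in CPM on a log axis, by group and site. Each point is 1 library and each bar the geometric mean of a group with 2 or more libraries; SQLE spreads from 3.63 to 89.7 CPM in the tumors and ACAT2 from 27.7 to 72.4 CPM, while the liver control and the cultured cells are high in both panels.

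The controls differed among themselves in both genes. SQLE was at 7.27, 13.7 and 15.5 CPM in the 3 blood controls, at 17.4 CPM in the spleen, at 27.3 CPM in the lung and at 129 CPM in the liver. ACAT2 was at 22, 28.7 and 31.7 CPM in blood, at 30.2 CPM in the spleen, at 15.3 CPM in the lung and at 58.1 CPM in the liver. The liver control was therefore the highest control for both, 4.74-fold above the next control for SQLE and 1.83-fold for ACAT2. Of the 19430 genes tested, 6.40% were highest in the liver control. SREBF2 was at 41.3 CPM in the liver, below the 59.5 to 138 CPM of the other controls, and 57.9% of genes were lowest there. The liver is 1 library, so these differences have no replicate check. When libraries were scaled by TMM (the trimmed mean of M-values, which corrects for a few dominant genes), its values were 363 CPM for SQLE, 163 CPM for ACAT2 and 116 CPM for SREBF2. On that scale the liver stayed the highest control for both enzymes, 18.1-fold and 5.63-fold above the next, and SREBF2 was no longer lowest there, with the other controls at 46.6 to 121 CPM. No tumor reached the SQLE level of the liver control, whereas 5 of 18 tumors exceeded its ACAT2 level on the raw CPM scale and 0 of 18 on the TMM scale.

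Against the control of the same organ, ACAT2 was higher in 6 of 6 lung tumors (HS and HHS) and in 2 of 2 spleen tumors, but in 1 of 4 liver tumors. SQLE was above the organ's control in 2 of 6 lung tumors, 2 of 2 spleen tumors and 0 of 4 liver tumors. Each organ has 1 control library, no test was made, and the share of all genes that reach such counts was not determined.

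The comparison of all tumors with unaffected samples asked which genes change in the disease, and it used the 5 controls without the liver, as the study left 1 control out. ACAT2 was above every one of these controls in 15 of 18 tumors, and 5.57% of the 19430 genes tested reached that count. The 3 tumors inside the control range were HS14, HS48 and the HHS tumor HS46. The fitted log2FC of ACAT2 was 1.09 (SE 0.29, 95% interval 0.49 to 1.69) with an adjusted p = 0.00807 in edgeR. ACAT2 was thus higher in tumors at an adjusted p under 0.05, as 27.2% of genes differed at that level, but it missed the cutoffs of the comparison, more than 1.5 in absolute log2FC with less than 0.0005 in adjusted p, which 2.77% of genes passed. The exact two-sided permutation test of the mean log2 CPM, 5.56 in tumors and 4.63 in controls, gave p = 0.00101, or 0.00581 after adjustment over the 10 such tests.

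SQLE was above every control in 5 of 18 tumors, below every control in 3 and inside their range in 10. The fitted log2FC was 0.68 (SE 0.57, 95% interval -0.49 to 1.85, adjusted p = 0.389 in edgeR). The exact permutation test of the mean log2 CPM, 4.04 in tumors and 3.90 in controls, gave p = 0.809. SREBF2, the pathway's regulator, went the other way in its fitted value, with a log2FC of -0.56 (SE 0.36, adjusted p = 0.261 in edgeR). It was below every control in 9 tumors (6 on the TMM scale) and above every control in 1. For these counts of SQLE and SREBF2 the share of all genes was not determined. None of the 3 genes was called.

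The set of controls decided the sign for SQLE. With the liver control added, the log2FC of SQLE was -1.72 (SE 0.65, adjusted p = 0.0481 in edgeR) and that of ACAT2 was 0.05 (SE 0.39, adjusted p = 0.942). The tumors shared their flow cell with the organ controls but not with the blood controls. Against blood alone, ACAT2 had a log2FC of 0.92 (adjusted p = 0.0457 in edgeR), and within the tumors' flow cell, against spleen and lung, 1.36 (adjusted p = 0.0677). SQLE had 0.97 and 0.30 (adjusted p = 0.315 and 0.863), and SREBF2 had -0.89 and 0.17 (adjusted p = 0.104 and 0.883), so that the direction of SREBF2 depended on the controls. Flow cell, breed and tissue of the controls cannot be told apart.

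**Figure D3:**
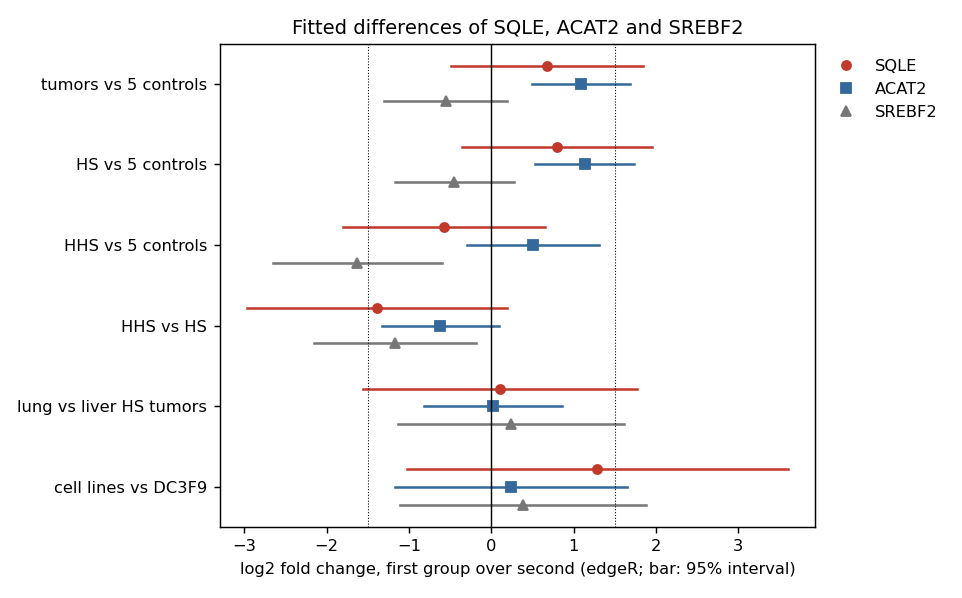
Fitted log2 fold changes of SQLE, ACAT2 and SREBF2 in 6 comparisons, first group over second. Points are edgeR estimates, bars their 95% intervals, and dotted lines mark an absolute log2FC of 1.5; the intervals of ACAT2 exclude 0 for all tumors and for HS tumors against controls, and every interval of SQLE crosses 0.

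The HS tumors and the HHS tumors were also set against the same 5 controls, so these values share their control samples with those above and with each other. In HS tumors the log2FC was 1.13 (SE 0.29, adjusted p = 0.00751 in edgeR) for ACAT2, with 13 of 15 tumors above every control, and 0.80 (SE 0.56, adjusted p = 0.298) for SQLE. The share of all genes with that count of ACAT2 was not determined. ACAT2 had an adjusted p under 0.05, as 25.9% of 19112 genes did. A call here needed that p together with an absolute log2FC over 1.5, which 17% of genes had (6.97% of genes higher), and ACAT2 missed the fold cutoff. In the 3 HHS tumors SQLE was at 3.63 CPM (liver, HS46), 10.5 CPM (lymph node, HS41) and 17.5 CPM (lung, HS53). Their log2FC against controls was -0.58 (SE 0.53, 95% interval -1.80 to 0.65, adjusted p = 0.571 in edgeR). ACAT2 in the same tumors was at 29.2, 43.5 and 34.7 CPM, with a log2FC of 0.51 (SE 0.35, 95% interval -0.30 to 1.31, adjusted p = 0.446). The calls covered 0.134% of 18643 genes, and neither enzyme was among them.

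Between the subtypes, both enzymes had lower values in HHS than in HS, without passing the test. The study's own pathway analysis of this contrast found only cholesterol biosynthesis altered, at lower levels in HHS. It used tumors of this same series, so the shared direction is not an independent result. The geometric mean of SQLE in HHS was 0.467 of that in HS (8.73 against 18.7 CPM) and that of ACAT2 was 0.709 (35.3 against 49.8 CPM). The fitted log2FC was -1.39 (SE 0.76, 95% interval -2.97 to 0.19) for SQLE and -0.62 (SE 0.34, 95% interval -1.33 to 0.09) for ACAT2, each with an adjusted p = 0.943 in edgeR. The exact permutation test gave p = 0.184 and 0.0931, or 0.368 and 0.268 after adjustment. The HS tumors overlapped the HHS tumors in both genes, with 8 of 15 above every HHS tumor for SQLE and 11 of 15 for ACAT2. The share of all genes that reach such counts was not determined. In this contrast edgeR called 0 of 19853 genes, while 4.01% had an unadjusted p under 0.05, and it called 4 genes with no filter on low counts. DESeq2 called 1 gene and left both enzymes uncalled too, at adjusted p = 0.736 for SQLE and 0.793 for ACAT2.

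SREBF2 in the HHS tumors was at 22 CPM (HS53), 30.0 CPM (HS41) and 35.9 CPM (HS46), below all 5 controls, a separation that 7.33% of genes showed. Of the HS tumors, 13 of 15 were above every HHS tumor, a count for which the share of all genes was not determined. HS14 (23.6 CPM) lay among the HHS tumors and HS48 (14.9 CPM) below them. The log2FC of SREBF2 was -1.63 (SE 0.45) against controls, with an adjusted p = 0.128 in edgeR and 0.00837 in DESeq2, and -1.17 (SE 0.47, unadjusted p = 0.0222, adjusted p = 0.943 in edgeR) against HS. DESeq2 called SREBF2 in HHS, as it called 11.6% of genes, and so did edgeR against blood alone (log2FC -1.92, adjusted p = 0.0116), where 20.8% of genes were called. Over the alternatives the log2FC ran from -1.92 to -0.82, the latter against spleen and lung alone (adjusted p = 0.366 in edgeR).

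Whether SQLE and ACAT2 vary together was asked over the 18 tumors on log2 CPM. Pearson's r was 0.398 (permutation p = 0.104) and Spearman's rho 0.393 (permutation p = 0.109), the largest p of the 3 pairs tested with SREBF2, so the adjusted values were the same. In the 15 HS tumors alone r was 0.280 (permutation p = 0.310) and rho 0.329, and without HS35 and HS46, the tumors farthest from the median of SQLE, r was 0.247 (permutation p = 0.353). A joint variation of the enzymes was not detectable with these tumors. SQLE with SREBF2 had r = 0.576 and rho = 0.546 (permutation p = 0.0127 and 0.0213, adjusted 0.0203 and 0.0471). ACAT2 with SREBF2 had r = 0.572 and rho = 0.513 (permutation p = 0.0135 and 0.0314, adjusted 0.0203 and 0.0471).

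These relations with SREBF2 rested in part on a few tumors. Without its 2 farthest tumors, SQLE with SREBF2 had r = 0.458 (permutation p = 0.0744), and without HS14 and HS46 ACAT2 with SREBF2 had r = 0.491 (permutation p = 0.0537). In HS tumors alone the r values were 0.598 (adjusted p = 0.0575 by permutation) and 0.509 (adjusted p = 0.0763 by permutation), and rho of ACAT2 with SREBF2 was 0.314 (permutation p = 0.254). With TMM-scaled CPM r with SREBF2 was 0.568 for SQLE and 0.521 for ACAT2 (adjusted p = 0.038 by permutation for both). On that scale rho was 0.515 for SQLE and 0.455 for ACAT2 (adjusted p = 0.0888 by permutation for both). On linear CPM r was 0.764 for SQLE and 0.453 for ACAT2 (adjusted p = 0.00222 and 0.0868 by permutation). All tumors were run on 1 flow cell, so there was no batch to split by. The points share the library total as denominator. Over the tumors rho with the total count was 0.079 for SQLE, -0.12 for ACAT2 and 0.41 for SREBF2.

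**Figure D4:**
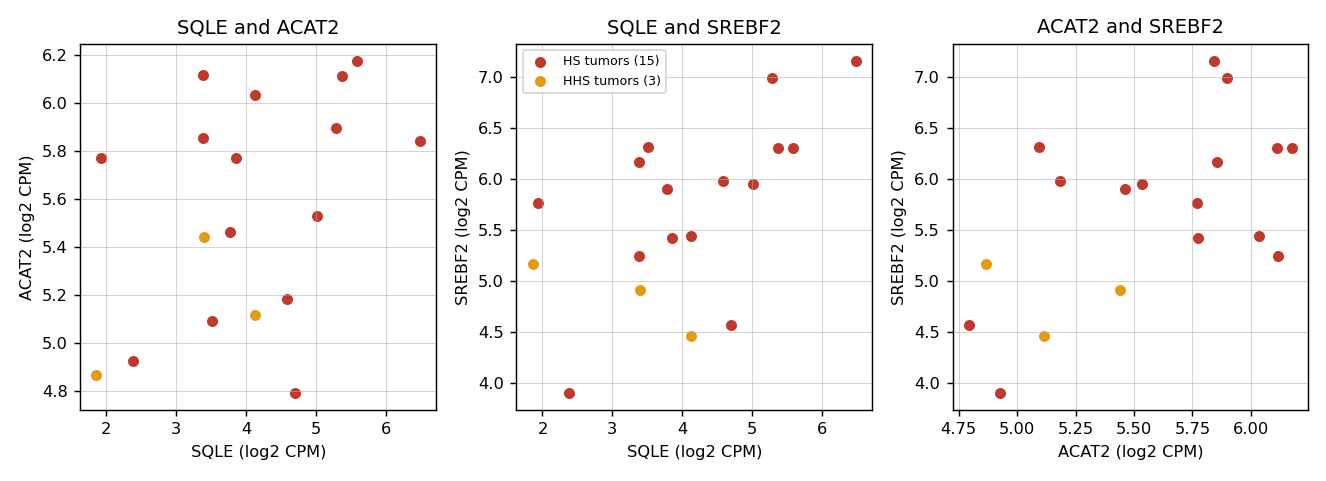
Pairs of genes over the tumors, each axis in log2 CPM: SQLE and ACAT2 (left), SQLE and SREBF2 (middle), ACAT2 and SREBF2 (right). Each point is 1 of the 15 HS or 3 HHS tumors; Pearson's r is 0.398, 0.576 and 0.572.

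Seen against all genes as a description, ACAT2 was more like SQLE than 95.6% of the genes tested, SREBF2 more than 99.3% and CYB5A, the cytochrome b5 that passes electrons to enzymes of sterol and lipid synthesis, more than 96.1% (rho = 0.404). The median rho of all genes with SQLE was 0.032. For ACAT2, SQLE was more alike than 92.1% of genes, SREBF2 than 97.1% and CYB5A than 99.0% (rho = 0.600), against a median of -0.038. The other genes of the sterol list were mixed. With SQLE, rho was 0.34 for CYB5R3, 0.090 for NUS1, 0.082 for TTC39B, -0.0052 for TSPO, -0.07 for LRP1 and -0.26 for PGGT1B. With ACAT2, rho was 0.42 for CYB5R3, 0.35 for TSPO, -0.044 for TTC39B, -0.38 for NUS1, -0.40 for LRP1 and -0.42 for PGGT1B. The alveolar marker AGER had a rho of 0.441 with SQLE, above 97.4% of genes, and was highest in HS35, the tumor with the highest SQLE, at 57.4 CPM. Among the T and NK cell markers tested, IL2RB and THEMIS each had -0.45 with SQLE. IFNG had -0.41, CD226 -0.39, TCF7 -0.25 and GRAP2 0.013. With ACAT2 these markers ran from -0.46 (TCF7) to -0.13 (IL2RB). The part of these cells in the relations was not tested. TCP1, whose gene overlaps ACAT2 in the other assembly, had a rho of 0.220 with ACAT2 and 0.022 with SQLE. These correlations share the 18 libraries and carry no test.

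**Figure D5:**
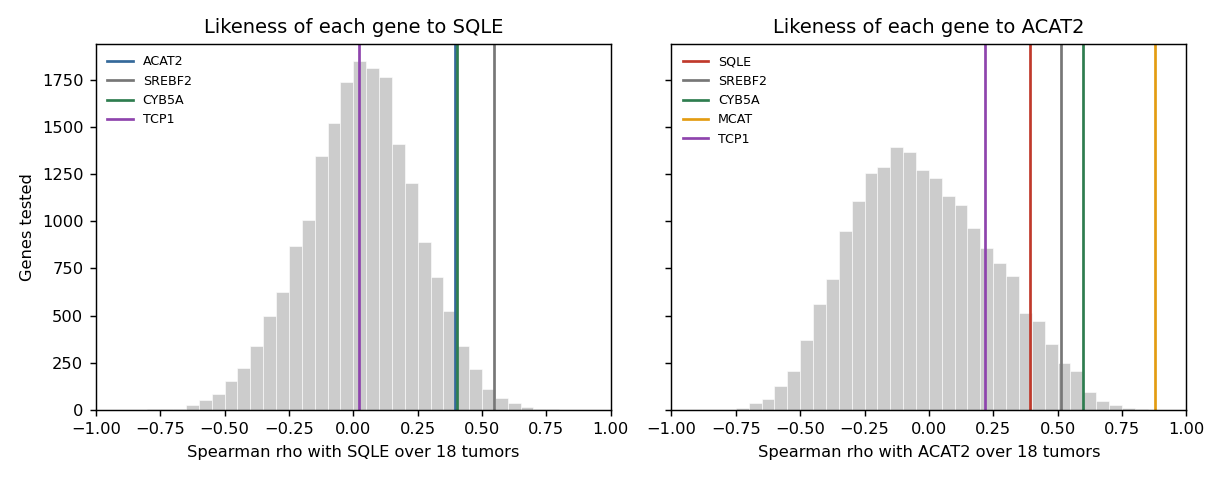
Histograms of Spearman's rho over 18 tumors between each gene tested and SQLE (left) or ACAT2 (right); the y axis counts genes. Coloured lines mark named genes; with SQLE, ACAT2 stands at 0.393 and SREBF2 at 0.546, and with ACAT2, MCAT stands at 0.878.

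Of the 930 other named genes that passed the filter, the 5 most like SQLE were FER1L6 (rho = 0.779), SLC44A4, a choline transporter family member (0.769), SASH1 (0.618), RSPO2, an enhancer of Wnt signalling (0.610), and RAB27B, a small GTPase of vesicle secretion (0.610), over 18 tumors. FER1L6 lay on chromosome 13 with 13 genes between it and SQLE in the RefSeq table, and RSPO2 lay on the same chromosome with 153 genes between. The 5 most like ACAT2 were MCAT (rho = 0.878), which loads malonyl groups for mitochondrial fatty acid synthesis, PDLIM4 (0.728), MDGA1 (0.697), ATF4, a stress-response transcription factor (0.670), and RPL3, a ribosomal protein (0.647). FER1L6 ranked 2 among all genes for SQLE and MCAT ranked 2 for ACAT2. In the HS tumors alone rho was 0.811 for FER1L6 with SQLE and 0.807 for MCAT with ACAT2. The names reach only part of the genome: the 906 named genes with a chromosome in that table lay almost entirely on chromosomes 1 and 10 to 14.

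The list of other genes of sterol and isoprenoid metabolism held 8 genes, SREBF2 among them. All 8 passed the filter. Against the 5 controls 0 of 8 were called in all tumors, where 2.77% of all genes were. In HS tumors 1 of 8 was called, higher, where 6.97% of all genes were called higher. The median log2FC of the 8 genes in all tumors was 0.28, against -0.01 over all genes tested, and 4 of 8 were above 0. LRP1, a receptor that takes up lipoproteins, was the gene called in HS, with a log2FC of 1.69 (SE 0.48, adjusted p = 0.0148 in edgeR), and the call was lost against spleen and lung alone (log2FC 1.73, adjusted p = 0.162) and with the liver control added (log2FC 1.45). NUS1, a subunit of the enzyme that makes dolichol from isoprenoids, had 1.46 in all tumors (adjusted p = 0.00107), under the fold cutoff. CYB5R3, the reductase that supplies cytochrome b5 with electrons, had the lowest value of the list in all tumors (log2FC -0.65, SE 0.36, adjusted p = 0.184), and CYB5A had 0.61 (SE 0.45, adjusted p = 0.326). Between HHS and HS, 2 of 8 had an unadjusted p under 0.05, as 4.01% of all genes did, both lower in HHS, SREBF2 and the cholesterol-binding TSPO (log2FC -2.40, SE 0.99, adjusted p = 0.943 in edgeR).

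In the list of fatty acid and acyl-CoA genes, 15 of 15 passed the filter, 3 were called higher in HS tumors, against 6.97% of all genes, and 0 lower. In all tumors edgeR called 0, with 7 at an adjusted p under 0.05, which 27.2% of all genes had. There DESeq2 called MCAT and PPARD, as it called 8.86% of all genes. With the liver control added, edgeR called PPARD (log2FC 1.73, adjusted p = 0.000274) among 724 of 19028 genes. The 3 were MCAT (log2FC 2.10, SE 0.40, adjusted p = 0.00102 in edgeR), the lipid-activated receptor PPARD (1.79, SE 0.35, adjusted p = 0.00126) and the fatty acid carrier FABP7 (3.72, SE 1.24, adjusted p = 0.0329). RXRB, a partner of nuclear receptors, had -1.07 (SE 0.28, adjusted p = 0.00836), short of the fold cutoff, and in all tumors -1.03, against -0.02 with spleen and lung alone. PPARA, a regulator of fatty acid oxidation, had the lowest value in all tumors (log2FC -2.14, SE 0.95, adjusted p = 0.0959). The median log2FC of the list was 0.54 in HS tumors, against -0.05 over all genes. Against spleen and lung alone, the log2FC was 1.76 for MCAT, 1.85 for PPARD and 2.92 for FABP7, and none of the 3 passed the adjusted p (0.0779, 0.0512 and 0.341 in edgeR). The log2FC of FABP7 was 2.46 without the tumor HS37 and 2.41 in DESeq2. The call of FABP7 was also lost without any 1 of the 3 blood controls or without the lung control (adjusted p = 0.0639 to 0.0794).

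Genes around the enzymes were compared as well, since the strand setting of the counting was not given and overlapping genes can affect each other's counts. The overlap of ACAT2 and TCP1 was seen in the other assembly, not in the annotation that was counted. TCP1 was at 151 to 376 CPM in the tumors and at 73.3 to 156 CPM in the 5 controls, and its log2FC in all tumors was 1.17 (SE 0.25, adjusted p = 0.00172 in edgeR), close in size to that of ACAT2. In the liver control TCP1 was at 76.6 CPM, or at 215 CPM on the TMM scale, where the other controls were at 73.2 to 129 CPM. Whether the overlap affected the counts was not tested. Of 4 named genes near ACAT2, SOD2, the mitochondrial superoxide dismutase, was called lower in all tumors, as 1.91% of genes were (log2FC -3.49, SE 0.43, adjusted p = 1.40e-05 in edgeR), with a value of 0.02 against spleen and lung alone. Of 8 named genes near SQLE, 0 were called in all tumors, where 2.77% of genes were. MTSS1, just past the fold cutoff, was called higher in HS (adjusted p = 0.0320 in edgeR), as 6.97% of genes were. That call was lost with DESeq2 (log2FC 1.46), with spleen and lung alone (adjusted p = 0.321 in edgeR) and without single controls. MYC had the lowest value of the 8, with a log2FC of -0.03 in all tumors (adjusted p = 0.963). WASHC5, the next gene to SQLE in the RefSeq table, had 1.17 in all tumors (SE 0.25, adjusted p = 0.00181).

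Of the 10 genes of the proliferation list, 7 were called higher in HS tumors, where 6.97% of genes were. In all tumors 3 were called higher, where 0.865% of genes were, and the median log2FC of the list was 1.62. The 3 were the mitotic genes GTSE1 (log2FC 3.21), KIFC1 (2.85) and CDC25C (2.66), and KIF20A, FBXO5, CENPM and DSCC1 joined them in HS tumors. NCAPH2, a condensin subunit, had the lowest value, 0.05 in all tumors (adjusted p = 0.913 in edgeR). The list's summed level was 230 to 579 CPM in tumors, 125 to 244 CPM in the 5 controls, 33.7 CPM in the liver control, 836 to 1040 CPM in the cell lines and 180 CPM in DC3F9.

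In culture both enzymes were high. SQLE was at 106 CPM in PJ, 352 CPM in OD and 428 CPM in BD, and at 87.3 CPM in DC3F9. ACAT2 was at 79.2 CPM in PJ, 89.9 CPM in OD and 160 CPM in BD, and at 67.1 CPM in DC3F9. All 18 tumors were below every line for both genes in raw CPM (16 of 18 for ACAT2 after TMM within each table). Such a separation in raw CPM held for 7.70% of the genes tested in the tumors. Below DC3F9 were 17 of 18 tumors for SQLE and 15 of 18 for ACAT2, counts for which the share of all genes was not determined. The cultured libraries were counted in a separate table and sequenced in a batch of their own, so culture, batch and cell type cannot be told apart and no test was made across the tables.

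Within the culture table, all 3 lines were above DC3F9 in CPM for SQLE (1.21-fold in PJ, 4.04-fold in OD and 4.90-fold in BD) and for ACAT2 (1.18-fold, 1.34-fold and 2.38-fold). Such an order held for 46.3% of the 18121 genes tested, and it turned with the scaling. On the TMM scale SQLE was at 97.1 CPM in PJ against 111 CPM in DC3F9, and ACAT2 at 72.9 CPM in PJ and 84.1 CPM in OD against 85.6 CPM in DC3F9. SREBF2 was at 141 CPM in PJ, 278 CPM in OD, 316 CPM in BD and 135 CPM in DC3F9, the same order of libraries as for both enzymes on the raw CPM scale, whereas on the TMM scale PJ (130 CPM) was below DC3F9 (173 CPM). The fitted log2FC was 1.29 (SE 0.89, 95% interval -1.03 to 3.60, adjusted p = 0.533 in edgeR) for SQLE and 0.24 (SE 0.54, 95% interval -1.17 to 1.64, adjusted p = 0.857) for ACAT2. DC3F9 is 1 library and was assumed to vary like the lines. By edgeR 0 genes were called, with 15.4% at an unadjusted p under 0.05, and by DESeq2 1855 of 18121 genes. Neither enzyme was among them, since DESeq2 gave adjusted p = 0.511 for SQLE and 0.926 for ACAT2. Without BD the log2FC of ACAT2 was -0.13 (SE 0.44), and without PJ that of SQLE was 1.68 (unadjusted p = 0.0295, adjusted p = 0.362 in edgeR).

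Ordered by geometric mean CPM, SQLE ran from the cell lines (252) over the liver control (129), DC3F9 (87.3), HS of the spleen (34.0), the lung control (27.3), HS of the liver (26.8), HS of the lung (20.2), the spleen control (17.4), blood (11.6), HS of the thorax (11.1) and HS of the limb (10.9) to HHS (8.73). Neighbours in this order overlapped in their values from HS of the spleen down to HHS, except that the spleen control was above all 3 blood controls. DC3F9 was above both spleen tumors and below the highest lung tumor. The liver control lay between PJ and OD. This order is on the raw CPM scale and sets separately counted tables side by side without a test. On the TMM scale the liver control (363 CPM) lay between OD (329 CPM) and BD (390 CPM). There DC3F9 (111 CPM) was above PJ (97.1 CPM) and above HS35 (74.3 CPM), the highest lung tumor.

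For ACAT2 the order was the cell lines (104), DC3F9 (67.1), the liver control (58.1), HS of the liver (56), HS of the lung (54.3), HS of the spleen (51.3), HS of the limb (44.4), HS of the thorax (40.6), HHS (35.3), the spleen control (30.2), blood (27.2) and the lung control (15.3). Neighbours from the liver control down to blood overlapped, while the lung control was below all 3 blood controls and DC3F9, on this raw CPM scale, below all 3 lines. On the TMM scale the liver control was at 163 CPM, above all 3 lines (72.9 to 146 CPM) and DC3F9 (85.6 CPM). DC3F9 and the liver control are single libraries, whose 95% Wilson intervals, which cover counting error only, were 65.4 to 68.9 CPM and 57 to 59.2 CPM. The 5 sites of HS followed each other without a gap, all above the controls other than the liver in their means.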

How the data were processed

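RNA was sequenced from 18 tumors, 6 controls and 4 cultured samples. After trimming (cutadapt 3.7) and alignment to the dog genome CanFam3.1 (STAR 2.7.10a), the authors counted reads per gene (HTSeq 2.0.0; versions from the submitters' processing notes) and deposited raw counts for 32704 identifiers, without normalization, in a table of tumors and controls and a table of cultured cells. The annotation release and the strand option are not given in the sources used here. The labels name a total RNA kit for every sample and the methods an mRNA kit for the cells. No column of another sample was used. Symbols came from the supplementary tables, which name 1025 identifiers. Most other genes of cholesterol synthesis had no such name and were not analysed here.

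From the deposited counts, CPM was computed with the column sum as the library total. Each comparison was fitted over all genes of its table with edgeR 4.0.16 in R 4.3.3 (filterByExpr, TMM, quasi-likelihood test, Benjamini-Hochberg), checked with DESeq2 1.42.0 and tested on simulated data. The replicates were taken as different dogs or cell lines, though the labels do not say whether the GSD organs share a dog. The p-values measure the spread between replicates, which among the controls includes differences of tissue and breed. Exact permutation tests and correlations (100000 permutations) used Python 3.11.15, numpy 2.4.6, scipy 1.17.1 and pandas 2.3.3, and figures matplotlib 3.10.9. SDs for the spread between tumors added 0.01 CPM before the logarithm. Groups came from the labels. Alternatives were other size factors, filters, control sets and tumor sets and leaving out each replicate. The alternative without HS33 and the TMM-scaled levels of SREBF2 and TCP1 were chosen after seeing the data. TMM scaling was done within each table.

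The members and lists were chosen with earlier results of these data known. The genes named are the members, SREBF2, list genes that were called or had the highest or lowest log2FC, and the 5 named genes with the highest rho to each member. NUS1, TSPO, CYB5A, PGGT1B, TTC39B, WASHC5, TCP1 and RXRB were named after their values were seen.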

Additional observations from a re-analysis of the deposited data

Results flagged for a closer look

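SQLE at 129 CPM and ACAT2 at 58.1 CPM in the liver control were above all other controls, in a library that the comparisons left out. HS48 had the lowest ACAT2 of the 5 HS tumors of the lung, 30.4 CPM, and its gap to the next tumor was 0.771 of the range of log2 CPM, above the Dixon value of 0.710 for 5 samples. SQLE in HS48, 5.21 CPM, was also the lowest of these tumors, with a gap of 0.245 of the range, and SREBF2, 14.9 CPM, was the lowest of all tumors. In a single group, a gap of this size appears by chance in about 1 in 20. Since 4 groups were checked, a lone gap among them is less rare than that.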

How the results depend on the processing

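Neither member was called in any comparison under any alternative. With the liver control added, SQLE turned to -1.72 in all tumors and -1.57 in HS tumors, and ACAT2 to -0.51 in HHS tumors. Between lung and liver tumors, where the values lay near 0, SQLE ranged from -0.62 to 0.34 and ACAT2 from -0.20 to 0.17 on leaving out 1 tumor. SQLE was -0.62 without HS35, -0.0048 without HS52 and -0.15 without HS36, ACAT2 was -0.20 without HS27 and -0.14 without HS50, and SREBF2, which ranged up to 0.47, was -0.07 and -0.0812 without HS35 and HS52. ACAT2 in the cell lines was -0.13 without BD and 0.41 without PJ. Leaving out 1 control, the adjusted p of ACAT2 in edgeR stayed between 0.0137 and 0.0288 in all tumors, and over all 14 alternatives between 0.00189 (DESeq2) and 0.942 (edgeR), above 0.05 with the liver control added or with spleen and lung alone.

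Against spleen and lung alone, the log2FC of SREBF2 turned to 0.17 in all tumors and 0.31 in HS, SOD2 to 0.0159 and 0.0165, and CYB5A to -0.15 and -0.081. CYB5A also turned to -2.43 and -2.36 with the liver control, and CYB5R3 to 0.63 and 0.69 against blood alone and to 0.0206 in HS without the lung control, with -0.81 to 0.0206 on leaving out 1 control. Without HS33, ACAT2 was 1.07 and SQLE 0.62 in all tumors. The cause was not tested. TMM scaling moved the CPM of single libraries, to 363, 20.02, 14.3 and 111 for SQLE and 163, 11.2, 25.0 and 85.6 for ACAT2 in liver, lung, spleen and DC3F9. Taking the top gene out of the total gave 148 and 90.9 for SQLE and 66.6 and 69.9 for ACAT2 in liver and DC3F9. r between SQLE and ACAT2 ranged from 0.239 to 0.391.

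No paired analysis was possible because replicate numbers in the labels do not link tumors to controls or cell lines. Each control organ has 1 library, HHS has 3 tumors and DC3F9 has 1 library, which limits every statement on them.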
